A study of Mus musculus with 6 samples.

Results

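Liver sinusoidal endothelial cells line the liver capillaries and clear waste macromolecules from blood, and 10 genes of their scavenging and endocytic equipment were followed here in cultures of mouse hepatic stellate cells. The genes are Stab1, Stab2, Oit3, Fcgr2b, Lyve1, F8, Gpr182, Clec4g, Mrc1 and Ehd3. Their probe sets were taken by symbol, as those whose platform annotation gives that single gene, and each gene had 1 such probe set. The 10 genes and all gene lists below were chosen with earlier results of these data known. Their counts beside the shares of all genes are therefore descriptive. The genes followed are 10 of 22180 genes represented on the arrays. All 10 were among the 15526 genes left to test after the dimmest were set aside.

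The 6 Affymetrix arrays covered 3 states at 2 ages, with 1 array in each group, and each sample was a pool of cells from 5 mice. PRI-724 cells were primary stellate cells activated on uncoated plastic for more than 20 days and then given C-82 at 10 µM, the active form of PRI-724, which blocks the binding of beta-catenin to its coactivator CBP. Vehicle cells were activated in the same way and had vehicle in place of C-82 (its solvent was dimethyl sulfoxide), and quiescent cells had been plated for 12 h. Old mice were 6 to 9 months of age and young mice 8 to 11 weeks, the livers were normal, and no strain, sex or genotype is given in the labels, nor is the time of exposure to C-82. The cells are labelled as stellate cells, the vitamin A-storing pericytes beside the sinusoids, and no purification step or purity is given there. The lower limit for testing was a mean log2 signal of 4.70. In old and young quiescent cells the 12 stellate cell genes had mean log2 signals of 7.79 and 8.02, from Lum at 5.74 and Hand2 at 5.89 up to Dcn at 11.96 and 12.23. The 18 genes found in endothelium of all kinds had means of 7.83 and 8.59 there, from Clec14a at 5.04 and Vwf at 5.51 up to Cdh5 at 12.30 and 12.73, and Emcn had 5.28 and 5.89. The young PRI-724 array had the narrowest spread, an interquartile range of 1.71 on the log2 scale over all tested genes, against 2.11 to 2.43 on the other 5. The old pair does not use that array. Its value is therefore given beside fitted differences from PRI-724 cells for the 10 genes, each list's median and each called list gene given a value. For list genes that were not called it is often left out.

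Sinusoidal endothelium differs from other endothelium in its open pores and in a very high rate of clathrin-mediated uptake. Its receptors bind hyaluronan, collagen fragments, modified lipoproteins, mannose-tipped glycoproteins and immune complexes, carry them to lysosomes and return to the surface. The cells also release coagulation factor VIII, and in culture they are known to lose these features quickly. Several of the same receptors, Mrc1, Stab1 and Fcgr2b among them, are also made by macrophages.

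With PRI-724 all 10 genes fell, by 2.79-fold to 27.0-fold relative to vehicle (limma, adjusted p threshold 0.05, n = 2 pairs). Of all genes tested, 1.93% fell by the same rule, and 0.271% rose. The median difference of the 10 genes was -3.37 log2 units, -2.97 in the old and -3.75 in the young pair, beside -0.05 over all genes. Each gene was at least 2-fold lower in the old pair and in the young pair, which held for 2.36% of all genes. In the old pair alone the share of all genes was 2.84%, and in the young pair 12.3%. All 10 genes were also lower in both PRI-724 samples than in both vehicle samples, as were 26.3% of genes. The standard error (SE) of a difference comes from a model that adds age and state. It draws on how far the ages disagree in that gene and, with more weight, over all genes (2 against 7.76 degrees of freedom). The p-values are adjusted over all 15526 genes. In these bulk samples, fewer cells of a type and less RNA per cell cannot be told apart.

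The fall did not pass the test in every processing of the data. When the array of young PRI-724 cells was left out, limma called 0 of the 10 genes (adjusted p from 0.226 to 0.826, 9 with an unadjusted p under 0.05), with 0 of 15526 genes called in all and 997 at an unadjusted p under 0.05. The median of the fitted differences was then -2.63. Fcgr2b, Mrc1, Oit3 and Stab1 kept their calls after cyclic loess or quantile normalization or without age in the model, 4 of 10 in each of the 3 cases. Without the old PRI-724 array 7 genes were called, Lyve1, F8 and Gpr182 not.

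All 10 genes fell, and the sequences just upstream of their starts were read for letters that endothelial and Wnt-pathway factors are known to bind. RefSeq promoter windows on GRCm38.p6 were given for 7 of the 10 genes, and the 250 bases upstream of the start are shown, 5′ to 3′, for the 4 of them that fell over 10-fold and whose window is not wholly inside the gene's outer bounds. The F8 window lies wholly inside the gene, at a start within it. The Stab1, Stab2 and Clec4g windows overlap their genes by 10, 96 and 44 bases, at the end nearest the start. Capitals mark matches, on either strand, to 5 motifs, namely AGGAAG for ETS factors, AGATAA for GATA factors, TGACAG for MEIS factors, TGCTGA for MAF factors and CTTTGA for TCF factors. The windows are chr14:31168642-31168891 (- strand) for Stab1, chr10:87007943-87008192 (- strand) for Stab2, chr1:170976072-170976321 (- strand) for Fcgr2b and chr2:14229164-14229413 (+ strand) for Mrc1.
Stab1: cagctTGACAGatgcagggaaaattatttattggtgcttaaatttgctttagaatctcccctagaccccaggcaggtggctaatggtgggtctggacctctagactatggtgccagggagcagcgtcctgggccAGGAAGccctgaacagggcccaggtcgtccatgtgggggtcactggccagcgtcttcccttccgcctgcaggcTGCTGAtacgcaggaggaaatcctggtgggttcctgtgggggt
Stab2: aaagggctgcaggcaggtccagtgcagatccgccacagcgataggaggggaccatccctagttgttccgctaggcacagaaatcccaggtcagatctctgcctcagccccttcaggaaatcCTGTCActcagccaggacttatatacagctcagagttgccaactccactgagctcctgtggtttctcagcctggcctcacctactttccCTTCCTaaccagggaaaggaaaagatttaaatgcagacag
Fcgr2b: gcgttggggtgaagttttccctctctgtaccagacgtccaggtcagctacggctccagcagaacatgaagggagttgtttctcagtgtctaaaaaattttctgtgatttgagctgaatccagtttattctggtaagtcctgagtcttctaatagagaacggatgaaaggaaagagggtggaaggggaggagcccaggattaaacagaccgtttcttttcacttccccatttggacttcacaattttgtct
Mrc1: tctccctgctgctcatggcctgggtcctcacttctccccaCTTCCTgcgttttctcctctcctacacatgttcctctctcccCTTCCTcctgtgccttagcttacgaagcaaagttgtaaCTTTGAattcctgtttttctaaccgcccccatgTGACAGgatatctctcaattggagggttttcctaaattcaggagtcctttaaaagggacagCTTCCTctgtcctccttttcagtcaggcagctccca
The Stab1 window held the MEIS letters 245, the ETS letters 116 and the MAF letters 43 bases upstream, counted from the start to the first base of the match. In the Stab2 window the MEIS letters began 129 and the ETS letters 40 bases upstream, both on the opposite strand. These ETS letters lie within the 96 bases that overlap the gene's outer bounds. The Mrc1 window held the ETS letters 3 times, at 210, 168 and 36 bases on the opposite strand, and the TCF and MEIS letters at 130 and 97 bases. The Fcgr2b window held none of the 5. Over the 7 windows the ETS letters were in 4 (Stab1, Stab2, Mrc1 and Clec4g), against 29.5% of 32851 mouse windows of this length, the MEIS letters in 3, against 15.9%, the MAF and TCF letters in 1 each, against 16.1% and 13.8%, and the GATA letters in 0, against 9.99%. The F8 window held no match, so without it these counts stand over 6 windows. No motif overlapped another kind, and 2 ETS matches of Clec4g shared bases. A match describes letters only and is not a measured binding site, and a link between matches and the fall was not tested.

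**Figure D1:**
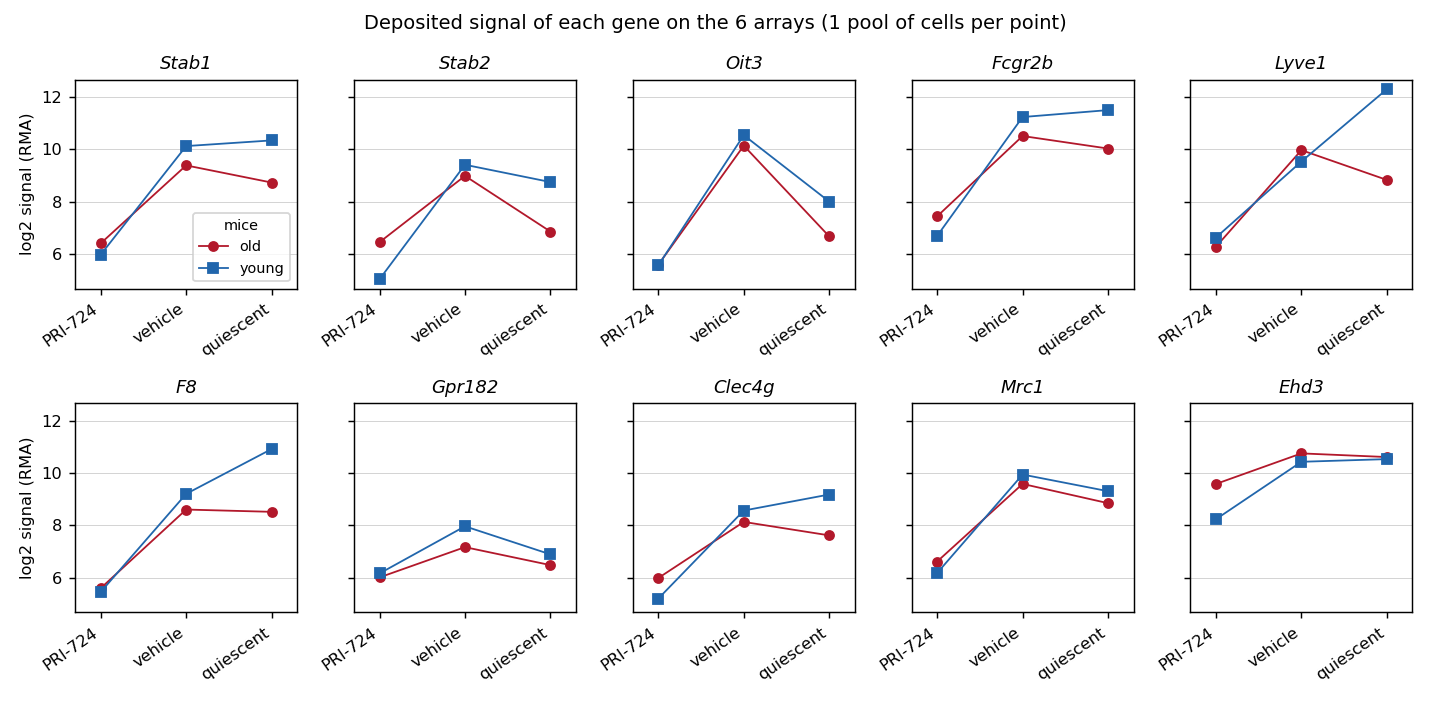
Deposited log2 signal (vertical axis) of each of the 10 genes in PRI-724, vehicle and quiescent cells (horizontal axis), with old mice as red circles and young mice as blue squares, 1 pooled sample per point and lines only joining samples of 1 age. Both PRI-724 points lie below both vehicle points for every gene, and Oit3 has its highest points in vehicle cells.

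The stabilins are large receptors that take up hyaluronan and other waste ligands. Stab1 had log2 signals, in old and then young mice, of 6.41 and 5.98 in PRI-724 cells, 9.39 and 10.13 in vehicle cells and 8.73 and 10.34 in quiescent cells. It was low in both PRI-724 samples, while vehicle and quiescent samples overlapped. Stab1, whose window holds MEIS, ETS and MAF letters, fell by 3.56 ± 0.42 log2 units with PRI-724 (SE, adjusted p = 0.00342), or 11.8-fold, with -2.98 in the old and -4.15 in the young pair. Stab2, the main hyaluronan clearance receptor of the liver, had signals of 6.45 and 5.04 in PRI-724 cells, 8.99 and 9.41 in vehicle cells and 6.86 and 8.75 in quiescent cells. Here the old quiescent sample lay close to the old PRI-724 sample, and the 3 states did not overlap. Stab2 fell by 3.45 ± 0.59 log2 units (adjusted p = 0.0195), with -2.53 in the old pair and -4.37 in the young pair.

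Lyve1, a hyaluronan receptor of lymphatic and sinusoidal endothelium, had signals of 6.28 and 6.63 in PRI-724 cells, 9.97 and 9.54 in vehicle cells and 8.83 and 12.30 in quiescent cells. Its highest value was in young quiescent cells, and the old quiescent sample lay below both vehicle samples. Lyve1 fell by 3.30 ± 0.71 log2 units with PRI-724, close to the threshold (adjusted p = 0.0465), and it missed the threshold when the lowest 50% of genes were left out (0.0603), when a gene was read as the mean over its probe sets (0.0511) or without the intensity trend (0.0532). It was the one gene of the 10 with a larger drop in the old pair, at -3.69 against -2.90 in the young pair. Mrc1, the mannose receptor, had signals of 6.62 and 6.18 in PRI-724 cells, 9.59 and 9.94 in vehicle cells and 8.85 and 9.31 in quiescent cells. Its 2 ages lay close together in each state, and it fell by 3.36 ± 0.30 log2 units (adjusted p = 0.00138), with -2.97 in the old and -3.76 in the young pair.

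Fcgr2b, the inhibitory Fc receptor that clears immune complexes from blood in sinusoidal endothelium, had signals of 7.44 and 6.70 in PRI-724 cells, 10.51 and 11.23 in vehicle cells and 10.03 and 11.50 in quiescent cells. Vehicle and quiescent samples overlapped, and both PRI-724 samples were far below them. Fcgr2b fell by 3.80 ± 0.43 log2 units, or 14-fold (adjusted p = 0.00286), with -3.07 in the old and -4.54 in the young pair. It was the one of the 4 genes shown without a match in its window. In either pair 10 of the 15526 genes had a more negative difference. Clec4g, the lectin also called LSECtin, had signals of 5.99 and 5.21 in PRI-724 cells, 8.13 and 8.57 in vehicle cells and 7.62 and 9.18 in quiescent cells, and fell by 2.75 ± 0.46 (adjusted p = 0.0174), with -2.14 in the old and -3.36 in the young pair.

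Oit3, a secreted protein with a zona pellucida domain that is enriched in liver, had signals of 5.60 and 5.58 in PRI-724 cells, 10.14 and 10.54 in vehicle cells and 6.68 and 8.01 in quiescent cells. Vehicle samples were high, quiescent samples were in between, and the 2 PRI-724 samples were nearly equal. These PRI-724 signals were low, above those of 32.2% of tested genes in old and 27.2% in young mice. It had the largest change of the 10 genes, since it fell by 4.76 ± 0.35 log2 units or 27.0-fold (adjusted p = 0.000764), with -4.55 in the old and -4.97 in the young pair. In the old pair Oit3 had the most negative difference of all 15526 genes, and in the young pair it ranked 6 from the bottom. F8, coagulation factor VIII, had signals of 5.60 and 5.46 in PRI-724 cells, 8.61 and 9.21 in vehicle cells and 8.52 and 10.92 in quiescent cells. The PRI-724 samples were again alike, at signals above those of 32.3% of tested genes in old and 22.6% in young mice. F8 fell by 3.38 ± 0.50 log2 units (adjusted p = 0.00902), with -3.00 in the old and -3.75 in the young pair. The processing compresses low signals, which limits what the size of the fall and the likeness of PRI-724 samples show for Oit3 and F8.

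The smallest changes belonged to Gpr182 and Ehd3. Gpr182, an atypical receptor that takes up chemokines, had signals of 6.01 and 6.17 in PRI-724 cells, 7.17 and 7.97 in vehicle cells and 6.48 and 6.90 in quiescent cells, and fell by 1.48 ± 0.28 log2 units (adjusted p = 0.0294), with -1.16 in the old and -1.80 in the young pair. Without the young vehicle array Gpr182 was not called, with 9 of the 10 genes still called. Ehd3, an ATPase that returns endocytosed receptors to the surface, had signals of 9.58 and 8.24 in PRI-724 cells, 10.75 and 10.43 in vehicle cells and 10.61 and 10.53 in quiescent cells. The young PRI-724 sample was the lowest, and the vehicle and quiescent samples of both ages lay between 10.43 and 10.75. Ehd3 fell by 1.68 ± 0.30 log2 units (adjusted p = 0.0229), with -1.17 in the old and -2.19 in the young pair.

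**Figure D2:**
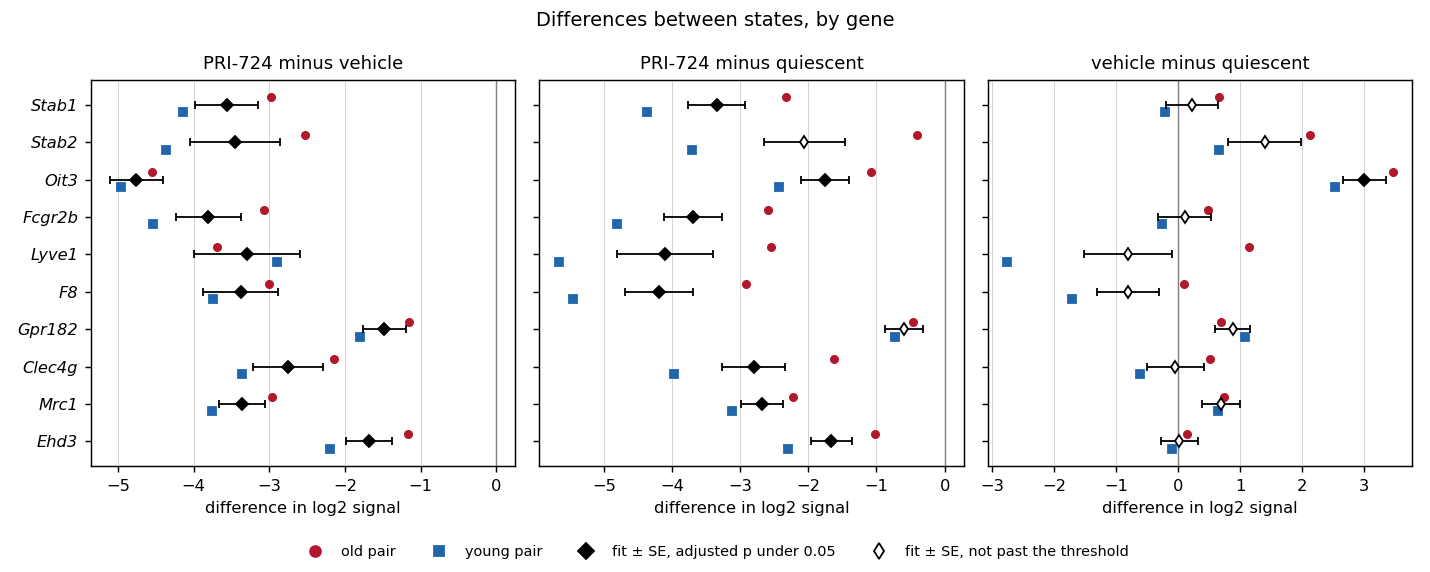
Differences in log2 signal (horizontal axis) for each gene (rows) in the 3 comparisons of states, with the old pair as red circles, the young pair as blue squares, and the fitted difference ± SE as diamonds that are filled where adjusted p was under 0.05. All diamonds of PRI-724 minus vehicle are filled and lie left of 0, and of vehicle minus quiescent that of Oit3 alone is filled.

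Relative to quiescent cells, 8 of the 10 genes were also lower with PRI-724 and passed the test, where 2.43% of all genes did, and 0 were higher, against 1.28% of all genes. The 10 genes had a median of -2.74 log2 units, -1.93 in the old and -3.84 in the young pair, beside 0.03 over all genes. Both PRI-724 samples lay below both quiescent samples for all 10, as for 18.0% of genes. F8 fell by 4.19 ± 0.50 log2 units (adjusted p = 0.00185), with -2.92 in the old and -5.46 in the young pair, where it ranked 48 and 6 from the bottom. Lyve1 fell by 4.11 ± 0.71 (adjusted p = 0.0120), with -2.55 in the old and -5.66 in the young pair, at ranks 89 and 2. Stab1, Fcgr2b, Clec4g and Mrc1 had values of -3.70 to -2.68, and all 4 were called. Their differences in the old pair were -2.32 for Stab1, -2.59 for Fcgr2b, -1.63 for Clec4g and -2.23 for Mrc1, and in the young pair they lay between -4.80 and -3.12. Oit3 fell by 1.75 ± 0.35 (adjusted p = 0.0236), with -1.08 in the old and -2.43 in the young pair, and Ehd3 fell by 1.66 ± 0.30 (adjusted p = 0.0161), with -1.03 in the old and -2.29 in the young pair. Stab2 stood at -2.06 ± 0.59 (adjusted p = 0.0981), with -0.41 in the old and -3.71 in the young pair, and Gpr182 at -0.60 ± 0.28 (adjusted p = 0.333), with -0.47 in the old and -0.73 in the young pair. When age was not in the model, 5 of the 10 genes were called (Stab1, Fcgr2b, Mrc1, F8 and Clec4g), beside 217 of 15526 genes. A fit that omits young or old PRI-724 cells leaves a single array in that state, so only the sizes are given. The median of the 10 genes was -2.08 log2 units with young and -3.52 with old PRI-724 cells omitted.

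The next comparison asks what long culture without the compound does to the same genes. Of the 10 genes 1 rose and 0 fell in vehicle relative to quiescent cells (limma, adjusted p threshold 0.05), against 4.61% and 1.26% of all genes. The unadjusted p was under 0.05 for 4 of the 10 genes and for 3484 of all 15526. The gene that rose was Oit3, by 3.0 ± 0.35 log2 units or 8.01-fold (adjusted p = 0.00408), with 3.47 in the old and 2.54 in the young pair. In the old pair 9 of 15526 genes had a larger rise. Oit3 was called in this comparison under each alternative that kept both vehicle and both quiescent arrays. With 1 array left out its value was 2.43 to 3.57 log2 units. Stab2 stood at 1.39 ± 0.59 (adjusted p = 0.201), Gpr182 at 0.88 ± 0.28 (0.0992) and Mrc1 at 0.69 ± 0.30 (0.220), each with both vehicle samples above both quiescent samples. This separation held for 4 of the 10 genes, Oit3 included, and for 33.0% of all genes.

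For the other 6 genes the pairs pointed in different directions, higher in old vehicle than in old quiescent cells and lower in young vehicle than in young quiescent cells. Lyve1 differed by 1.14 log2 units in the old and -2.76 in the young pair, and its fitted value was -0.81 ± 0.71 (adjusted p = 0.543). The Lyve1 value was -2.56 without the old quiescent array and -1.98 without the old vehicle array. It was 0.94 without the young quiescent array and 0.36 without the young vehicle array. F8 stood at -1.90 without the old and 0.27 without the young quiescent array, and Stab2 at 0.20 and 2.59. Each of these fits leaves 1 array in a state, so only the sizes are given. The difference between the ages in this response could not be tested, with 1 array in each group. PRI-724 minus vehicle and vehicle minus quiescent share the vehicle arrays, so their values are given side by side only.

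The gap between old and young mice had its widest median in quiescent cells. There 9 of the 10 genes were lower in old than in young mice, 7 of them at least 2-fold, which held for 2.98% of all genes. The median of the 10 genes was -1.51 log2 units in quiescent cells, -0.43 in vehicle cells and 0.43 in PRI-724 cells, beside 0.03, 0.01 and 0.17 over all genes. In quiescent cells Lyve1 stood at -3.46 log2 units (old minus young), F8 at -2.40 and Stab2 at -1.89. The gap was near 0 for Ehd3, at 0.08, and small for Gpr182, at -0.41, and Mrc1, at -0.46. In PRI-724 cells Stab2 and Ehd3 were higher in old mice, by 1.41 and 1.35. There the 10 genes had a median signal above 48.7% of tested genes in old and 45.9% in young mice. In quiescent cells it was above 89.7% and 96.3%. Stab2 lay above 7.70% and Clec4g above 12.9% of tested genes in young PRI-724 cells, where signals are compressed. A gap within 1 state rests on 1 array for each age and has no test. Averaged over the 3 states 0 of the 10 genes were called (limma, adjusted p from 0.449 to 0.912), beside 0.264% of all genes higher and 0.251% lower. The unadjusted p was under 0.05 for 2 of the 10 genes and for 1615 of all 15526. With either vehicle array left out, Lyve1 stood at -1.91 log2 units, the mean of unlike gaps of -0.35 in PRI-724 cells and -3.46 in quiescent cells.

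**Figure D3:**
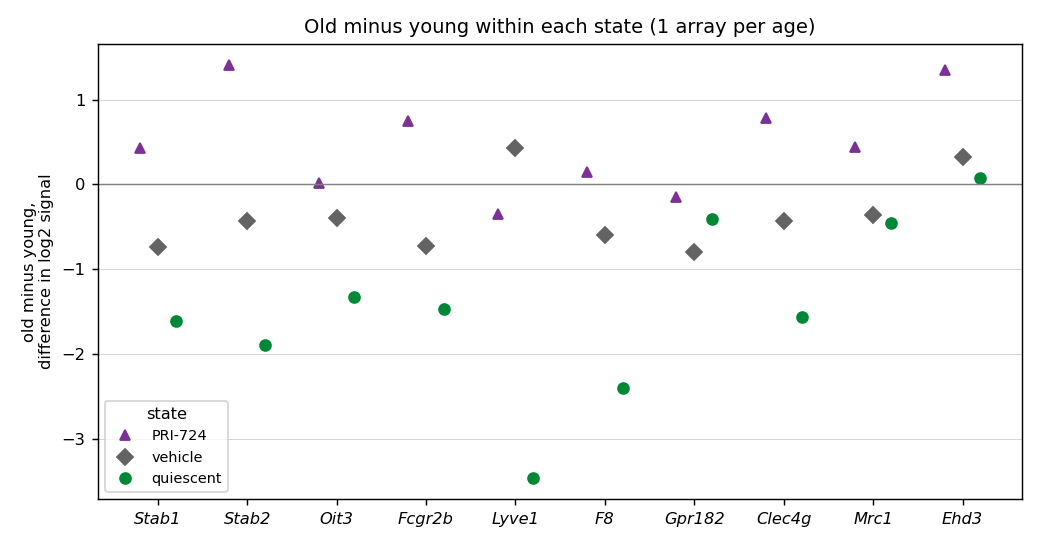
Old minus young difference in log2 signal (vertical axis) for each gene (horizontal axis) in PRI-724 cells (triangles), vehicle cells (diamonds) and quiescent cells (circles), 1 array per age and state and no error bars. The circles lie lowest for 9 genes (not Gpr182), down to -3.46 for Lyve1, and the triangles lie above 0 for 8 genes.

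Beside this age gap, the hepatocyte genes stood the other way. All 9 tested hepatocyte genes were at least 2-fold higher in old than in young quiescent cells, as were 3.16% of all genes, with a median of 3.04 log2 units, and Alb, serum albumin, had 11.95 in old and 9.32 in young quiescent cells. Their mean log2 signal was 7.22 in old and 6.27 in young PRI-724 cells, 7.14 and 4.94 in vehicle cells, and 9.27 and 6.34 in quiescent cells. The 9 other sinusoidal endothelial genes had a median of -1.20 in quiescent cells, with all 9 lower in old mice and 5 of them at least 2-fold. Whether the gap of the 10 genes differs from theirs was not tested. The 14 Kupffer cell and macrophage genes had a median of 0.65 in the same contrast and the 18 pan-endothelial genes one of -0.58, with 7 of the 18 at least 2-fold lower. The part of these cell types in the age gap was not tested.

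The other endothelial genes give the setting of the fall with PRI-724. Of 18 genes found in endothelium of all kinds 11 fell and 0 rose, with a median of -1.97 log2 units, -1.38 in the old and -2.27 in the young pair. Pecam1, an adhesion molecule of endothelial junctions, fell by 2.31 ± 0.45 log2 units, Cdh5, vascular cadherin, fell by 2.51 ± 0.44, Kdr, a receptor for vascular endothelial growth factor, fell by 2.45 ± 0.35, and Tek, the angiopoietin receptor, fell by 1.82 ± 0.37. Pecam1 stood at -1.34, Cdh5 at -1.57, Kdr at -1.88 and Tek at -1.15 in the old pair alone. Of 9 further genes known from sinusoidal endothelium 3 fell, with a median of -1.84 log2 units, -1.33 in the old and -2.73 in the young pair. They were Clec1b, Flt4 and Aqp1, the last named after its value was seen. Clec1b, a lectin receptor, fell by 3.85 ± 0.35 and Flt4, a receptor for lymphatic growth factors, fell by 2.26 ± 0.41, while Dnase1l3, a secreted nuclease, stood at -1.81 ± 0.69 (adjusted p = 0.247) and Bmp2, the iron-regulating signal of these cells, at -0.97 ± 0.32 (0.186). In the old pair alone the values were -3.22 for Clec1b, -1.95 for Flt4, -0.74 for Dnase1l3 and -0.75 for Bmp2.

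Of 13 endothelial transcription factors 4 fell, with a median of -1.15 log2 units, -0.98 in the old and -1.23 in the young pair. They were Tfec and, named after their values were seen, Erg, Fli1 and Sox18. Tfec fell by 1.79 ± 0.32 log2 units, with -1.26 in the old and -2.32 in the young pair, whereas Gata4, the factor that specifies sinusoidal endothelium and is also made by stellate cells, stood at -0.52 ± 0.27 (adjusted p = 0.403), Maf at -1.76 ± 0.46 (0.0948) and Meis2 at -1.29 ± 0.34 (0.0918). Gata4 stood at -0.66, Maf at -1.46 and Meis2 at -0.98 in the old pair alone. Of the 4 lymphatic endothelial genes 2 were tested and 0 were called, with a median of 0.53 log2 units, 0.24 in the old and 0.83 in the young pair. Prox1, the factor that defines lymphatic endothelium, had log2 signals of 4.32 to 5.11 over the 6 arrays. Pdpn, podoplanin, stood at 1.12 ± 0.38 (adjusted p = 0.199), with 0.40 in the old and 1.85 in the young pair.

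Most macrophage genes were lower with PRI-724 too. Of 14 tested Kupffer cell and macrophage genes 11 fell with PRI-724, with a median of -2.63 log2 units, -2.29 in the old and -2.81 in the young pair. Vsig4, a complement receptor, fell by 5.08 ± 0.33 and Cd5l, a secreted macrophage protein, fell by 5.14 ± 0.51, while Clec4f stood at -1.36 ± 0.41 (adjusted p = 0.139) and Timd4 at -0.05 ± 0.39 (0.970). Their values in the old pair alone were -4.53 for Vsig4, -3.97 for Cd5l, -2.28 for Clec4f and -0.26 for Timd4. Clec4f, which marks Kupffer cells, had log2 signals of 6.04 and 6.80 in old and young PRI-724 cells, 8.32 and 7.25 in vehicle cells, and 9.42 and 8.82 in quiescent cells. The mean log2 signal of the 14 genes was 6.14 and 5.96 in old and young PRI-724 cells, 8.60 and 8.78 in vehicle cells, and 9.20 and 8.35 in quiescent cells. The same mean of the 10 scavenger genes was 6.60 and 6.12, 9.32 and 9.70, and 8.32 and 9.77 in this order of samples. The part of macrophages in the signal of the scavenger genes that they share was not tested.

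Genes of stellate cells and of the activated myofibroblast were described in the same way. Of 12 stellate cell genes 1 fell, with medians of -0.25 in the old and -0.78 in the young pair. It was Lrat, the retinyl ester synthase, at -1.69 ± 0.31 and -1.24 in the old pair. Des, desmin, stood at -0.54 ± 0.38, with 0.27 in the old and -1.36 in the young pair, Reln at -0.22 ± 0.27 and Hand2 at -1.15 ± 0.31. Of 8 myofibroblast genes 1 fell (Myl9, a myosin light chain, named after its value was seen), with medians of -0.55 in the old and -2.52 in the young pair. Acta2, smooth muscle actin, stood at -1.82 ± 0.41 (adjusted p = 0.0573) and Col1a1, a collagen chain, at -1.92 ± 0.48 (0.0803), with -0.90 and -1.05 in the old pair. Of 9 hepatocyte genes 0 passed the test, with a median of 0.58 log2 units, 0.05 in the old and 1.21 in the young pair. All 9 were positive in the young pair, where the median over all genes was -0.14. Their mean log2 signal in young vehicle cells was 4.94, close to the lower limit for testing. The share of all genes that were higher in that pair was not computed, so these signs are not read as a hepatocyte result. Of 3 lymphocyte genes 0 passed, with a median of 0.15 log2 units, 0.02 in the old and 0.38 in the young pair. Without the young PRI-724 array no gene of any list was called, since 0 of 15526 were.

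**Figure D4:**
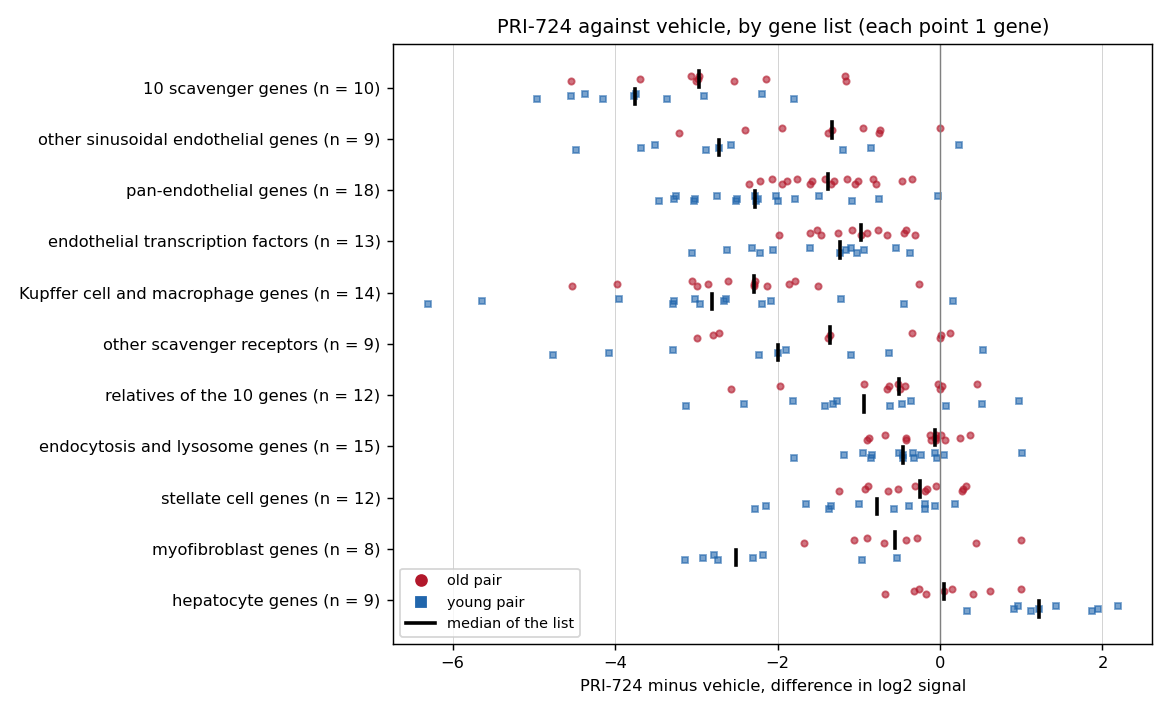
PRI-724 minus vehicle difference in log2 signal (horizontal axis) for the tested genes of each list (rows), with the old pair as red circles, the young pair as blue squares and the list's median as a black bar. The medians of the 10 scavenger genes are -2.97 and -3.75, and those of the endocytosis and lysosome genes lie near 0, at -0.07 and -0.45.

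Receptors bring cargo to a machinery of coats, adaptors and lysosomal enzymes that all cells have. Of 15 endocytosis and lysosome genes 2 fell and 0 rose, with a median of -0.25 log2 units, -0.07 in the old and -0.45 in the young pair. They were Lgmn, legumain, at -1.35 ± 0.25, and Ctsd, cathepsin D, at -0.81 ± 0.14, both lysosomal proteases and both named after their values were seen, with -0.90 and -0.68 in the old pair. Dab2, a clathrin adaptor, stood at -1.03 ± 0.25 (adjusted p = 0.0713), the clathrin heavy chain gene Cltc at -0.22 ± 0.20, and the adaptor subunits Ap2a1 and Ap2b1 at -0.14 ± 0.26 and -0.45 ± 0.28. Among 9 tested scavenger receptors outside the 10 genes 5 fell, with a median of -1.67 log2 units, -1.36 in the old and -1.99 in the young pair. Besides Msr1, Cd36 and Scarf1 they were Colec12 and Marco, named after their values were seen. Msr1, the macrophage scavenger receptor, fell by 3.44 ± 0.34, Cd36, a fatty acid and lipoprotein receptor, fell by 3.74 ± 0.41, and Scarf1 fell by 1.67 ± 0.33, while Scarb1, the receptor for high-density lipoprotein, stood at -0.94 ± 0.42 (adjusted p = 0.330). For the old pair alone the values were -2.80 for Msr1, -2.72 for Cd36, -1.36 for Scarf1 and 0.02 for Scarb1.

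Relatives of the 10 genes were measured by probe sets of their own. Of 12 such genes 1 fell with PRI-724, the Fc receptor gene Fcgr4, at -2.85 ± 0.30 and -2.58 in the old pair, named after its value was seen, and the median was -0.70 log2 units, -0.51 in the old and -0.94 in the young pair. Ehd1 stood at -0.22 ± 0.27, Ehd2 at -0.85 ± 0.29 and Ehd4 at -1.03 ± 0.35, beside -1.68 ± 0.30 for Ehd3, and Mrc2, a collagen receptor, stood at -0.55 ± 0.26, beside -3.36 ± 0.30 for Mrc1. In vehicle relative to quiescent cells Ehd2 rose by 2.47 ± 0.29 (adjusted p = 0.00408) and Mrc2 by 1.03 ± 0.26 (0.0489). The differences between relatives were not tested.

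The partners of these genes were followed too. Of 7 tested genes of hyaluronan synthesis and turnover 1 fell with PRI-724, Cemip2, a cell-surface hyaluronidase, at -1.98 ± 0.39 (adjusted p = 0.0335) and -1.48 in the old pair. The list had a median of -0.20 log2 units, -0.25 in the old and -0.15 in the young pair. The synthases Has1, Has2 and Has3 stood at -0.20 ± 0.24, 0.30 ± 0.27 and 0.10 ± 0.25, with log2 signals of 4.52 to 5.55 over the 6 arrays, and Hyal2, another hyaluronidase, at -0.73 ± 0.31 (0.298). Of the 3 genes of factor VIII carriage and export 0 were called. Vwf, the von Willebrand factor that carries factor VIII in blood, stood at -0.18 ± 0.25 (adjusted p = 0.746) with signals of 4.79 to 5.51, and the export receptor genes Lman1 and Mcfd2 stood at -0.34 ± 0.29 and 0.04 ± 0.29. The median of the 3 was -0.18 log2 units, 0.06 in the old and -0.16 in the young pair.

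The 10 genes had similar profiles over the 6 arrays. The Pearson correlation of each gene with the mean of the other 9 was 0.82 for Oit3 and for Gpr182, the lowest, and 0.99 for Stab1 and Fcgr2b, the highest. The 2 PRI-724 arrays were low for all 10, so these values describe 6 points in which 1 state stands apart. Among 1208 other genes with a range of at least 2 log2 units, the 10 most like the mean profile were Tie1, Npr1, Flt4, Ptpn6, Cemip2, Cd180, Egfl7, Cyp4b1, Rac2 and Rapgef5, with r from 0.995 for Tie1 to 0.979 for Rapgef5. Tie1, an endothelial receptor kinase, had log2 signals of 6.23 and 5.96 in old and young PRI-724 cells, 8.30 and 8.24 in vehicle cells, and 7.47 and 8.36 in quiescent cells. Npr1, a natriuretic peptide receptor, had 5.45 and 5.23, 7.20 and 7.37, and 6.70 and 7.29 in the same order. Ptpn6, Cd180 and Rac2 are known from leukocytes and Egfl7 from endothelium.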

How the data were processed

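The 6 arrays were Affymetrix GeneChips labelled with the WT PLUS kit, per the labels. The authors deposited log2 values, computed with RMA in Affymetrix Expression Console per the submitters' processing notes, with versions and options not given in the sources used here. The method removes background, equalizes the distribution of probe signals between arrays and summarizes probes on a log2 scale. It compresses low signals, and it would partly remove a shift shared by most genes.

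Of 41345 probe sets, 23521 carried 1 gene symbol in the platform annotation, 1814 several and 16010 none. Those with 1 symbol gave 22180 genes, each read from its probe set with the highest mean over the 6 arrays. The 30% of genes with the lowest mean were left out. No scanner signal was used, and the number of arrays limits the precision. Each age and state had 1 array, so old and young samples served as replicates of a state. The labels describe pools of 5 mice each. The p-values draw on the spread between these pools, in the gene itself and, with more weight, over all genes.

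Differences were fitted with limma 3.58.1 in R 4.3.3, with age and state as additive terms and an intensity trend in the variance, and p-values were adjusted by Benjamini-Hochberg over all genes tested. Data were simulated with noise independent between arrays, of 1 size per gene and with no array of narrower spread. This setting is simpler than the real arrays, so shares from it need not hold for them. In the simulated data the fit called 5% to 8% of 2-fold and 84% to 92% of 4-fold differences between states. For age it called 29% and 98%. A gene that was not called may therefore still differ by 2-fold. A difference within 1 age has no test. Alternatives changed the filter, the probe set rule, the variance trend, the age term, the arrays fitted and the scaling between arrays, or left out 1 array. The genes named by rule are the 10 genes, the first 4 tested genes of each list as written, and the 10 other genes most like the 10 genes' mean profile. Likeness was the Pearson correlation over the 6 arrays, among genes with a range of at least 2 log2 units and without predicted genes. Some further list genes were named after their values were seen, for a call or for their signal in quiescent cells. The 10 genes and all lists were chosen with earlier results of these data known. Tmem2 of the platform annotation is given as Cemip2. Promoter sequences are from RefSeq's GRCm38.p6 table, matched by symbol for 7 of the 10 genes.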

Additional observations from a re-analysis of the deposited data

Results flagged for a closer look

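In vehicle minus quiescent cells, 6 of the 10 genes had a positive difference in the old pair and a negative one in the young pair. Lyve1 stood at 1.14 log2 units in the old pair and -2.76 in the young pair, the widest gap of the 6. F8 stood at 0.087 in the old and -1.71 in the young pair, and Clec4g at 0.51 and -0.61. The values were 0.66 and -0.22 for Stab1, 0.48 and -0.26 for Fcgr2b, and 0.14 and -0.10 for Ehd3. With 1 array for each age and state, the difference between the ages was not tested.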

How the results depend on the processing

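All 140 values of the 10 genes under the alternatives had the main direction in PRI-724 minus vehicle (-5.20 to -1.11) and in PRI-724 minus quiescent (-5.86 to -0.37). With no replicate block, that is without the age term, 4 of 10 genes were called in PRI-724 minus vehicle, against 10 with it, and 5 in PRI-724 minus quiescent, against 8. Cyclic loess and quantile normalization left 4 calls each in PRI-724 minus vehicle. Leaving out 1 array in turn gave 0 to 10 calls in PRI-724 minus vehicle, 0 to 9 in PRI-724 minus quiescent, 1 to 3 in vehicle minus quiescent and 0 to 1 in old minus young. The state or age left with 1 array was then assumed to vary like the others. The variance of such a fit came mostly from other genes, so a call there rests little on the gene's own spread. In vehicle minus quiescent the sign turned after cyclic loess or quantile normalization for Fcgr2b (-0.068 and -0.044) and Ehd3 (-0.15 and -0.078). Leaving out 1 array moved the value across 0 for Stab1 (-0.51 to 0.95), Fcgr2b (-0.63 to 0.85), Lyve1 (-2.56 to 0.94), F8 (-1.90 to 0.27), Clec4g (-0.92 to 0.82) and Ehd3 (-0.36 to 0.40). In old minus young it did so for Stab2 (-1.16 to 0.49), Fcgr2b (-1.10 to 0.011), Lyve1 (-1.91 to 0.042), Clec4g (-1.0 to 0.18) and Mrc1 (-0.41 to 0.039). The causes were not tested.

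Over all genes, 341 were called in PRI-724 minus vehicle (84 to 965 under other settings, 0 to 968 without 1 array), 577 in PRI-724 minus quiescent (217 to 1064, and 0 to 1053), 911 in vehicle minus quiescent (114 to 866, and 318 to 1230) and 80 in old minus young (0 to 75, and 0 to 343). A fit on the arrays of the 2 states alone does not exist for old minus young. With 1 array for each age and state, precision rests on the agreement of the ages, in a gene and over all genes.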
